A study of Mus musculus with 6 samples.

Results

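Aquaporins are the channels that carry water across cell membranes, and the genes described here are the 9 members of the family Aqp1, Aqp2, Aqp3, Aqp4, Aqp5, Aqp7, Aqp8, Aqp9 and Aqp11, as measured in the pregnant mouse uterus. They were found by the gene symbol that the deposited table writes beside each probe identifier, which gave 18 probes among the 45281 probes, and 9 symbols among 30789, on the array. The study measured uterine RNA late in pregnancy on 6 single-colour Illumina bead arrays: 3 arrays from mice at 18.5 days post coitum, close to term, and 3 arrays from mice at 15.5 days post coitum. All mice were pregnant and no treatment or genetic change is given; neither strain nor maternal age is stated. The labels name the tissue as uterus whereas the design text speaks of myometrium, and that text counts 18 biological replicates per day and 36 samples in all, so how many animals stand behind an array is not known, and p-values here reflect array-to-array spread, part of which may be technical.

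An aquaporin monomer forms a pore that lets water follow an osmotic gradient, and the direction of flow is set by salt transport and other solutes rather than by the channel. Aqp1, Aqp2, Aqp4, Aqp5 and Aqp8 are known chiefly as water channels, Aqp3, Aqp7 and Aqp9 are aquaglyceroporins that also carry glycerol, and Aqp11 is a divergent intracellular member. In the uterus, ovarian steroids are known to change both tissue water content and the amount of several aquaporins.

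Of the 9 genes, 4 were measured well enough to be tested, and 3 of those fell at day 18.5: Aqp8 by 17.3-fold, Aqp5 by 7.95-fold and Aqp3 by 2.24-fold. The remaining tested gene, Aqp1, was bright on every array and did not pass the test. None of the tested members rose, and none was higher at an unadjusted p under 0.05 in limma either. A probe was tested when its detection p-value, the array software's test of signal against negative controls, was under 0.05 on at least 3 of the 6 arrays; 7 of the 18 aquaporin probes met this, 2 of Aqp8, 3 of Aqp1 and 1 each of Aqp5 and Aqp3. A call means a Benjamini-Hochberg adjusted p under 0.05 in limma, adjusted over all 20701 probes tested. Of the 7 tested probes 4 were lower and 3 did not pass, where over all tested probes 13.2% were lower and 11.6% higher. With each gene taken by its brightest probe, 3 of 4 aquaporins were lower, against 13.0% of the 14751 genes tested; 12.2% of all genes were higher, and the median log2 change of all genes was 0.02. A member enters these counts by being detected, and a gene can be detected through a high signal on only 1 of the days, so the shares describe the 4 genes and are not support for a shift of the family.

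The arrays were alike in the share of probes detected and in correlation, but their median unnormalized signals ran from 75.84 to 104.7 units. Between 43.63% and 46.51% of probes were detected per array, array-to-array correlations across probes were 0.9922 to 0.9948 within a day and 0.9744 to 0.9815 between days, and the number of arrays limits precision. Each aquaporin value is a mean over 30 to 66 beads. All arrays lay on 1 chip with the days in separate stretches of it, so day and chip position cannot be told apart. Since whole tissue was lysed, fewer cells of a type and less RNA per cell cannot be told apart either.

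Because Aqp8, Aqp5 and Aqp3 fell while Aqp1 did not pass the test, the 250 bases before the gene start of these 4 genes are shown. They are as given by RefSeq on GRCm38.p6, on the gene's own strand. Capitals mark every match to the E-box spelling CACCTG or to the TATA element TATAAA. Other E-box spellings were not searched and are not marked. The windows are chr7:123462044-123462293 on the plus strand for Aqp8, chr15:99590778-99591027 on the plus strand for Aqp5, chr4:41098184-41098433 on the minus strand for Aqp3 and chr6:55336049-55336298 on the plus strand for Aqp1.
Aqp8: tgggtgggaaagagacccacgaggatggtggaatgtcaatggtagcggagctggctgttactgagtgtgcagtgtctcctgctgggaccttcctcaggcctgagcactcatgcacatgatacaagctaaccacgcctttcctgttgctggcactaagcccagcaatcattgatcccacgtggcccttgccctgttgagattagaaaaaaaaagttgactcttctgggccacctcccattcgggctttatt
Aqp5: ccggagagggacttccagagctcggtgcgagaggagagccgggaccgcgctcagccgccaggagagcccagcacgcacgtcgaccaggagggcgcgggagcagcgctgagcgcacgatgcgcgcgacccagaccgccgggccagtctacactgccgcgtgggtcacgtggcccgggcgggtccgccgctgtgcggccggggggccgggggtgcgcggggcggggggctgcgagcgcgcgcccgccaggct
Aqp3: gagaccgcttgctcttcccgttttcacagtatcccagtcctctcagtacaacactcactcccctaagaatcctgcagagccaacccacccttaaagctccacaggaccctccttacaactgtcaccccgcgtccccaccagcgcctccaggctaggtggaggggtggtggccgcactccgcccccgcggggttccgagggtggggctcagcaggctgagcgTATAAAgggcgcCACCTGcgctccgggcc
Aqp1: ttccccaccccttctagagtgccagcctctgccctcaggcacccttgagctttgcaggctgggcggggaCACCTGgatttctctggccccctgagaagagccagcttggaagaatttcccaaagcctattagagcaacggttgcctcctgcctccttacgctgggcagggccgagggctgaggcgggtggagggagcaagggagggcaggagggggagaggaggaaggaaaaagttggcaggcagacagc

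The windows of the 3 genes that fell differed in make-up. The Aqp5 window was 78.4% G and C with 38 CG pairs, that of Aqp3 64.0% with 14, and that of Aqp8 52.4% with 5; the Aqp1 window was 62.0% with 5, and the median over 32851 RefSeq promoter windows of the same length was 52.4%, with quartiles at 45.2% and 61.2%. In Aqp3 the TATA element, spelled TATAAA, began 29 bases before the gene start. The E-box spelling CACCTG began 17 bases before it, without overlap. In Aqp1 CACCTG began 181 bases before it. Both strands were searched, and CACCTG occurred in 17.22% and TATAAA in 12.37% of all windows. The nuclear receptor core AGGTCA was searched as well and is present in 14.02% of windows. The steroid receptor core AGAACA is present in 16.08%. Neither is in the 4 printed windows, and those of Aqp8 and Aqp5 hold none of the letter patterns searched. The windows of Aqp8 and Aqp5 do hold CACGTG, another E-box spelling, which was not searched. It is also in the window of Aqp2, a member detected on no array. Its share over all windows was not counted, so it does not mark the genes that fell. None of this says anything on the binding of any factor. Windows were found for 8 of the 9 members.

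Aqp8, a water channel known from secretory and absorptive epithelia, showed the largest fall in the family, on 2 separate probes. On the log2 scale of the normalized signal, its probe ILMN_2756379 read 9.69, 9.51 and 9.07 on the day 18.5 arrays of replicates 1, 2 and 3, against 13.87, 13.44 and 13.28 on those of day 15.5. Its other probe, ILMN_2854157, read 9.59, 9.58 and 9.01 at day 18.5, against 13.77, 13.48 and 13.29 at day 15.5. The days lay far apart on both probes, and within each day replicate 1 was the brightest and replicate 3 the dimmest. Aqp8 averaged 9.42 ± 0.32 at day 18.5 and 13.53 ± 0.31 at day 15.5 on the first probe (SD, n = 3 arrays each). The change was -4.11 with a standard error of 0.20 in log2 units, a 17.3-fold fall with a 95% confidence interval of 12.6 to 23.6-fold (limma, adjusted p = 3.88e-06). The second probe changed by -4.12 with a standard error of 0.19, a 17.4-fold fall (limma, adjusted p = 3.54e-06). Counted from the largest fall, these probes stood at places 8 and 9 of the 20701 tested. Before any normalization the first probe gave 889, 704 and 471 intensity units at day 18.5, against 17609, 11567 and 10377 at day 15.5. Aqp8 RNA was still detected on every array at day 18.5.

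Aqp5, the water channel of the apical membrane of secretory glands and, in the mouse uterus, of glandular epithelium, fell as well. Its single probe read 10.20, 10.06 and 9.62 on the log2 scale at day 18.5, against 13.37, 12.92 and 12.56 at day 15.5. The lowest day 15.5 array stood well above the highest of day 18.5, and the order of the replicates within each day was that of Aqp8. Aqp5 averaged 9.96 ± 0.31 at day 18.5 and 12.95 ± 0.40 at day 15.5 (SD, n = 3 each). The log2 change was -2.99 with a standard error of 0.22, a 7.95-fold fall with a 95% confidence interval of 5.64 to 11.2-fold (limma, adjusted p = 2.15e-05), place 41 from the largest fall. Unnormalized signals were 1234, 1008 and 662 units at day 18.5 and 12321, 8190 and 6488 units at day 15.5.

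Aqp3, an aquaglyceroporin of the basolateral membrane of epithelia, had the smallest of the 3 falls and the dimmest signal among the tested probes. It read 5.64, 6.19 and 5.55 on the log2 scale at day 18.5, against 6.60, 6.92 and 7.36 at day 15.5. The days did not overlap, but the gap between the highest day 18.5 array and the lowest day 15.5 array was narrow. At day 15.5 replicate 3 was here the brightest, the reverse of Aqp8 and Aqp5. Aqp3 averaged 5.79 ± 0.35 at day 18.5 and 6.96 ± 0.38 at day 15.5 (SD, n = 3 each). The log2 change was -1.17 with a standard error of 0.22, a 2.24-fold fall with a 95% confidence interval of 1.58 to 3.18-fold (limma, adjusted p = 0.0047), place 536 from the largest fall. It was detected on all 6 arrays, with detection p-values of up to 0.0331 at day 18.5. Near the background its size depended on the background correction: the change was -0.69 with none and -1.47 with the authors' deposited values, and it passed the test in each case.

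Aqp1, the water channel of red cells, of many capillary endothelia and of some smooth muscle, was bright on every array at both days. Its brightest probe, ILMN_2756486, read 12.71, 12.67 and 12.68 on the log2 scale at day 18.5, against 12.66, 12.49 and 12.75 at day 15.5. These values overlapped between the days and lay within a narrow band. The change was 0.05, with a 95% confidence interval of -0.22 to 0.32 in log2 units (limma, adjusted p = 0.794). The other probes changed by 0.09 (interval -0.19 to 0.37; limma, adjusted p = 0.651) and 0.07 (interval -0.25 to 0.39; limma, adjusted p = 0.754). The sign of all 3 was negative when arrays were scaled to a common median instead of quantile-normalized (-0.05, -0.01 and -0.05), a scaling that moved the median of all probes to -0.11, so no direction is given for Aqp1. On these probes the intervals leave out a change of the size seen for Aqp3, Aqp5 or Aqp8 in either direction.

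**Figure D1:**
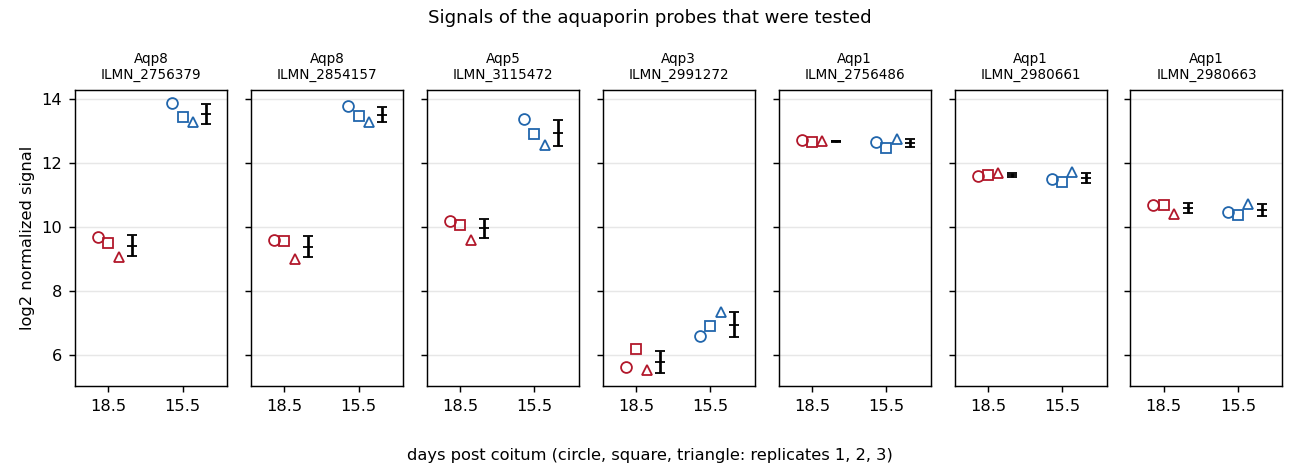
Normalized signal (log2, vertical axis) of the 7 tested aquaporin probes on each array, with day 18.5 at the left and day 15.5 at the right of each panel; circles, squares and triangles are replicates 1, 2 and 3, and black bars are the mean ± SD of 3 arrays. The days are widely separated for both Aqp8 probes (9.42 against 13.53 on the first) and for Aqp5 (9.96 against 12.95), narrowly separated for Aqp3, and overlap for the 3 Aqp1 probes.

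The 3 tested genes that fell were also compared in how far they moved, as a description. Probes cannot be compared in level, but the change in the difference between 2 probes within an array can be. The Aqp8 minus Aqp5 difference was between -0.55 and -0.51 on the day 18.5 arrays and between 0.51 and 0.71 on the day 15.5 arrays, so that Aqp8 fell by 1.12 log2 units more than Aqp5. These ranges were narrow within each day, since the 2 genes were high and low on the same arrays. Aqp8 fell by 2.94 more than Aqp3, and Aqp5 by 1.83 more. The size of these differences from Aqp3 depends on the background correction, since Aqp3 lies near the background. Its own change was -0.69 with no background correction and -1.47 with the authors' deposited values. For all 3 pairs the arrays of the days did not overlap, and the two-sided exact permutation test gave p = 0.1, also after Benjamini-Hochberg adjustment over the 3 pairs, which is the smallest value that 3 arrays against 3 allow.

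**Figure D2:**
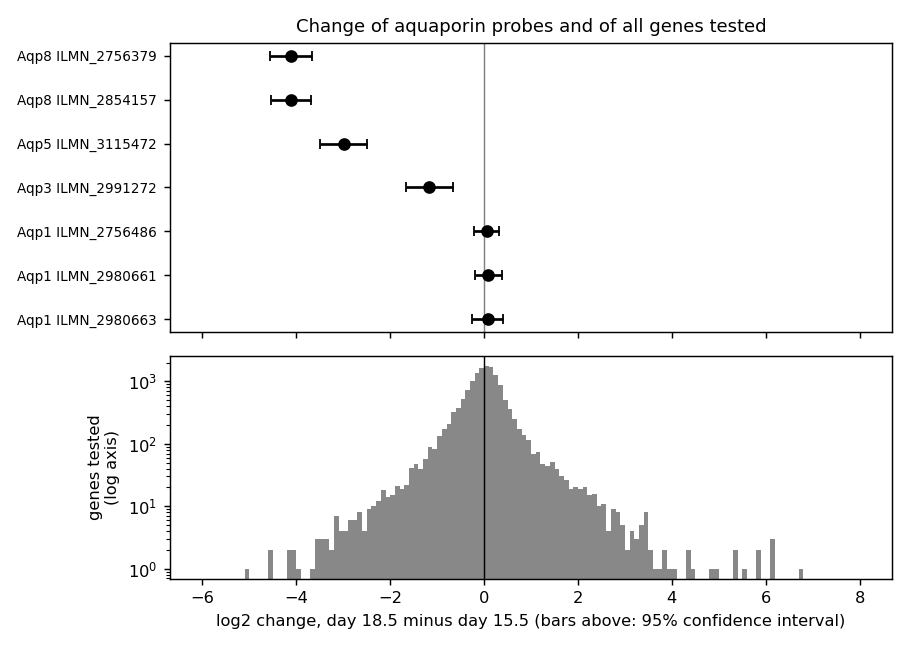
Upper panel: log2 change (day 18.5 minus day 15.5, horizontal axis) of each tested aquaporin probe, with bars for the 95% confidence interval. Lower panel: the number of genes (log axis) at each change among all 14751 genes tested; the Aqp8 probes at -4.11 and -4.12 lie in the far left tail and Aqp1 at the centre.

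The other 5 genes were not tested. Aqp9, an aquaglyceroporin of liver and leukocytes, was detected on 2 of the day 15.5 arrays and none of the day 18.5 arrays. It read 4.86, 4.83 and 4.97 on the log2 scale at day 18.5, against 5.07, 5.83 and 5.63 at day 15.5. The days did not overlap, as was the case for 41.7% of all tested probes. With day 18.5 undetected only a bound on the difference of the means can be given, at least 1.05-fold lower at day 18.5. It takes for each day 18.5 array the higher of its lowest detected signal and the probe's own. It uses the mean of all 3 day 15.5 arrays, of which replicate 1 was undetected. Their spread is left out of it, so it does not establish a fall. The means were 4.89 ± 0.07 at day 18.5 and 5.51 ± 0.40 at day 15.5 (SD, n = 3 each), and when all probes were fitted without a detection filter the change was -0.62 (limma, adjusted p = 0.0981).

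Aqp2, the vasopressin-regulated water channel of the kidney collecting duct, Aqp4, the channel of astrocytes and fast skeletal muscle fibres, Aqp7, the aquaglyceroporin of fat cells, and Aqp11 were detected on no array. Their 10 probes had detection p-values of 0.0908 or higher throughout. That means that they were not well above background, not that the RNA was lacking. Of these probes, 9 had overlapping days and differences between -0.17 and 0.06 log2 units. The exception was the Aqp4 probe ILMN_2757232, which read 5.243, 5.003 and 5.174 at day 18.5, against 4.680, 4.763 and 4.577 at day 15.5. Its days did not overlap, and in the fit without a detection filter its change of 0.47 passed the test (limma, adjusted p = 0.0222). Since all 6 values were below the detection threshold, no fold is given, and the other Aqp4 probe differed by -0.05. The 4 probes of the further family members Aqp6, Aqp12 and Mip, the lens channel, were likewise detected nowhere.

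**Figure D3:**
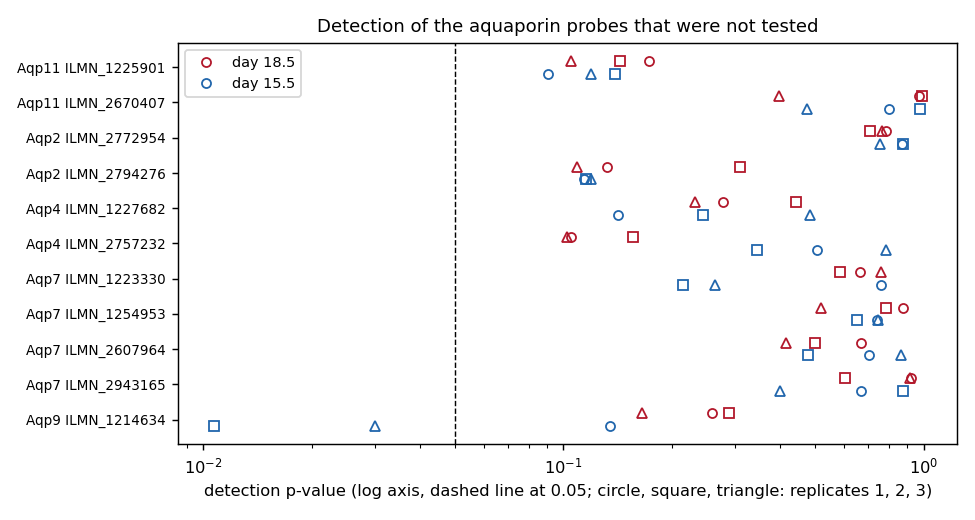
Detection p-value (log axis) of the 11 aquaporin probes that were not tested, on each array, with day 18.5 in red above day 15.5 in blue and replicates 1, 2 and 3 as circles, squares and triangles. Only 2 points, both of Aqp9 at day 15.5, lie left of the dashed line at 0.05.

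Water follows salt, and the genes that move ions across epithelia changed in both directions. In a list of transport genes 16 were tested, of which 6 rose, 5 fell and 5 did not pass, with a median log2 change of 0.26, against 12.2% higher, 13.0% lower and a median of 0.02 over all genes. Fxyd4, a regulator of the sodium pump, rose 5.95-fold (10.91 ± 0.07 at day 18.5 and 8.34 ± 0.49 at day 15.5 on the log2 scale; limma, adjusted p = 4.47e-05). Car12, a membrane carbonic anhydrase, rose 4.79-fold (limma, adjusted p = 6.53e-05). Among genes that fell were subunits of the epithelial sodium channel, which absorbs sodium from the lumen: Scnn1b fell 4.28-fold (9.47 ± 0.27 at day 18.5 and 11.57 ± 0.11 at day 15.5; limma, adjusted p = 2.19e-05). Scnn1g, another subunit, was undetected at day 18.5 and at least 4.203-fold lower there (5.12 ± 0.13 at day 18.5 and 7.51 ± 0.45 at day 15.5; limma, adjusted p = 5.14e-05). The third subunit, Scnn1a, was not detected well enough to test. The count of 5 lower genes was 3 without replicate 3 of day 15.5 and 3 without replicate 2 of day 18.5.

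The receptors that steer renal Aqp2 were not measurable: the vasopressin receptors Avpr1a, Avpr1b and Avpr2 were not detected well enough to test. Of 12 tested genes of the vasopressin and oxytocin receptor and cyclic AMP list, 3 rose, 1 fell and 8 did not pass, with a median of -0.09. The shares over all genes were 12.2% higher and 13.0% lower. The oxytocin receptor gene Oxtr, undetected at day 15.5, was at least 4.33-fold higher at day 18.5 (7.57 ± 0.22 at day 18.5 and 4.90 ± 0.05 at day 15.5; limma, adjusted p = 4.10e-06). Pde4d, which breaks down cyclic AMP, rose 2.69-fold (limma, adjusted p = 9.49e-05), and Adcy3, an adenylyl cyclase that makes it, fell 1.67-fold (limma, adjusted p = 0.00469; detected on 2 of 3 arrays at day 18.5).

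In the list of the osmotic stress response 13 genes were tested, of which 2 rose, 2 fell and 9 did not pass. Their median was -0.01, and over all genes 12.2% were higher and 13.0% lower. Trpv4, a swelling-activated cation channel, rose 1.74-fold (limma, adjusted p = 0.00158), as did Akr1b3, the aldose reductase that makes sorbitol (1.74-fold; limma, adjusted p = 0.00259). The betaine transporter gene Slc6a12 fell 4.81-fold (7.75 ± 0.11 at day 18.5 and 10.01 ± 0.49 at day 15.5; limma, adjusted p = 9.67e-05). Slc5a3, the myo-inositol transporter, fell 2.13-fold (limma, adjusted p = 0.0182), a call lost without replicate 2 or without replicate 3 of day 18.5, where the count of lower genes was 1. Nfat5, the factor that drives this response, had a change of 0.34 that did not pass (limma, adjusted p = 0.0795).

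Aquaglyceroporins pass glycerol, and of 12 tested genes of glycerol and triglyceride handling 2 rose, 2 fell and 8 did not pass, with a median of 0.09. For this list and the hyaluronan list below, the shares over all genes were 12.2% higher and 13.0% lower. Dgat2, which makes triglyceride, rose 5.82-fold (11.68 ± 0.29 at day 18.5 and 9.14 ± 0.42 at day 15.5; limma, adjusted p = 5.27e-05), and Lpl, lipoprotein lipase, rose 1.98-fold (limma, adjusted p = 0.000365). Mgll, which releases glycerol from monoglyceride, fell 2.35-fold (limma, adjusted p = 0.000906). Glycerol kinase, which the file names Gyk, fell 1.80-fold (limma, adjusted p = 0.000991). Among 8 tested genes of hyaluronan, the water-binding matrix sugar, 1 rose, 1 fell and 6 did not pass, with a median of -0.13. The hyaluronan synthase Has1 rose 1.58-fold (limma, adjusted p = 0.0338), a call lost when any array other than replicate 1 of day 18.5 was left out. Vcan, a proteoglycan that binds hyaluronan, fell 1.76-fold (limma, adjusted p = 0.00215); without replicate 3 of day 15.5, 2 genes of the list were lower.

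Ovarian steroids regulate uterine aquaporins, so genes known to answer to them are given as well. The lists were chosen with earlier results of these data known, so their counts are a description. No hormone level is given for these mice, and the part of steroids in the aquaporin changes was not tested. Over all genes 12.2% were higher and 13.0% lower, the shares to set beside the counts here and below. Of 12 tested oestrogen-responsive genes 8 rose, none fell and 4 did not pass, with a median log2 change of 1.68. Wnt7a, a ligand of the uterine epithelium, was undetected at day 15.5 and at least 5.67-fold higher at day 18.5 (limma, adjusted p = 8.37e-06). Sprr2f, an epithelial envelope protein, rose 8.69-fold (limma, adjusted p = 1.97e-05). Of 9 tested progesterone-responsive genes 1 rose, 6 fell and 2 did not pass, with a median of -1.05. Tsc22d3, also known as a glucocorticoid target, fell 3.03-fold (limma, adjusted p = 2.60e-05), and Zbtb16, a transcription factor, fell 4.52-fold (limma, adjusted p = 4.96e-05; detected on 2 of 3 arrays at day 18.5). Hand2, a factor of the uterine stroma, was undetected at day 15.5 and at least 1.72-fold higher at day 18.5 (limma, adjusted p = 0.000109).

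Aqp8, Aqp5 and Aqp3 are known from epithelia, and Aqp1 from vessels, red cells and some smooth muscle. Markers of those cells were therefore read beside them. Of 10 tested epithelial markers 8 rose and none fell, and their summed normalized signal, taken out of log2, was 38300 to 44500 units at day 18.5, against 14800 to 23300 at day 15.5. Krt8, the brightest, rose 2.17-fold (limma, adjusted p = 0.00104), Cldn4, a tight junction protein, rose 6.51-fold (limma, adjusted p = 9.85e-06), and Elf3, an epithelial transcription factor, rose 4.39-fold (limma, adjusted p = 5.61e-05). Epcam, Ovol1 and Foxa2, the last a marker of uterine glands, were not detected well enough to test. Aqp8, Aqp5 and Aqp3 fell where the epithelial marker sum was higher. Which cells held their RNA was not measured, and the part of cell make-up in their falls was not tested.

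Of 9 tested endothelial markers 5 fell and none rose, with summed signals of 9150 to 10700 units at day 18.5 and 13600 to 17700 at day 15.5, and Kdr was not detected well enough. Cdh5, the endothelial cadherin, fell 3.24-fold (limma, adjusted p = 5.45e-05) and Plvap, of fenestrated vessels, 1.66-fold (limma, adjusted p = 0.00325). The count of 5 was 2 or 3 without replicate 2 or 3 of either day. Of 7 tested red cell genes 3 fell and 1 rose, with sums of 51000 to 55500 units at day 18.5 and 66000 to 67200 at day 15.5. Slc4a1, the red cell anion exchanger, fell 2.14-fold (limma, adjusted p = 0.000259) and Alas2, of haem synthesis, 1.69-fold (limma, adjusted p = 0.00661). The globin gene Hbb-b1, the brightest, changed by -0.31 (limma, adjusted p = 0.0677). These sums moved while the 3 Aqp1 probes did not pass the test. The marker sums of smooth muscle, another known site of Aqp1, overlapped between the days, as given below. The part of vessels, blood and smooth muscle in the Aqp1 level was not tested.

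Smooth muscle markers, which check the labelled tissue, summed to 111000 to 119000 units at day 18.5 and 108000 to 121000 at day 15.5; of 9 tested 3 fell and none rose. Myocd, the smooth muscle transcription factor, fell 5.22-fold (limma, adjusted p = 3.88e-06) and Smtn 1.43-fold (limma, adjusted p = 0.00798), while Acta2, the brightest, changed by 0.07 (limma, adjusted p = 0.728). Skeletal muscle genes, read because of Aqp4, summed to 1680 to 2760 units at day 18.5 and 9510 to 12600 at day 15.5, and 3 of 5 fell, among them Acta1 by 6.09-fold (limma, adjusted p = 1.97e-05) and Tnni2 by 2.96-fold (limma, adjusted p = 0.00111); Myh4, Myh2, Casq1 and Pvalb were not detected well enough.

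Markers of tissue next to the uterine wall also differed. Of 5 tested decidual genes 2 rose and 3 fell, with sums of 30100 to 34200 units at day 18.5 and 15100 to 17800 at day 15.5. Gja1 makes up most of that sum, and without it the other 4 genes summed to 2760 to 2920 units at day 18.5 and 5770 to 7360 at day 15.5, the opposite direction; leaving out the brightest member, chosen after the data were seen, turned no other marker list. Gja1, a gap junction gene of muscle too, rose 2.83-fold (limma, adjusted p = 4.17e-05), and Akp2, alkaline phosphatase, 2.99-fold (limma, adjusted p = 0.000269). Bmp8a fell 2.59-fold (limma, adjusted p = 5.56e-05) and the decidual hormone gene Prl8a2 fell 3.16-fold (limma, adjusted p = 0.000879). Of 6 tested trophoblast and yolk sac genes 4 rose and 1 fell, with sums of 4540 to 8580 units at day 18.5 and 802 to 845 at day 15.5. Without Rbp4, the brightest, the other 5 genes summed to 4210 to 8370 units at day 18.5 and 130 to 246 at day 15.5. The trophoblast genes Ceacam11 and Prl2a1 were undetected at day 15.5 and at least 40.1-fold (limma, adjusted p = 2.41e-05) and 31.8-fold (limma, adjusted p = 3.60e-05) higher at day 18.5, and Rbp4, a retinol carrier, fell 2.49-fold (limma, adjusted p = 0.000728). Tpbpa, Ttr and Alb were not detected well enough. The part of this tissue in the aquaporin values was not tested.

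For Aqp9, known from leukocytes, 4 neutrophil genes were tested: S100a9 rose 1.59-fold (limma, adjusted p = 0.0331) and 3 did not pass, and no gene was called higher without replicate 1 or 2 of either day. Their sums overlapped, at 534 to 595 units for day 18.5 and 467 to 606 for day 15.5. For Aqp7, known from fat, 2 adipose genes were tested and neither passed, with sums of 136 to 680 units at day 18.5 and 503 to 686 at day 15.5; without replicate 1 of day 18.5 both were lower, and Fabp4, Plin1 and Lep were not detected well enough. Of 3 mesothelial genes, Upk1b rose 1.87-fold (limma, adjusted p = 0.0258; detected on 2 of 3 arrays at day 15.5), and the count was between 0 and 2 when single arrays were left out, staying at 1 only without replicate 2 of day 15.5. In each list with 0 calls in a direction, limma gave 0 genes at an unadjusted p under 0.05 in that direction as well.

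**Figure D4:**
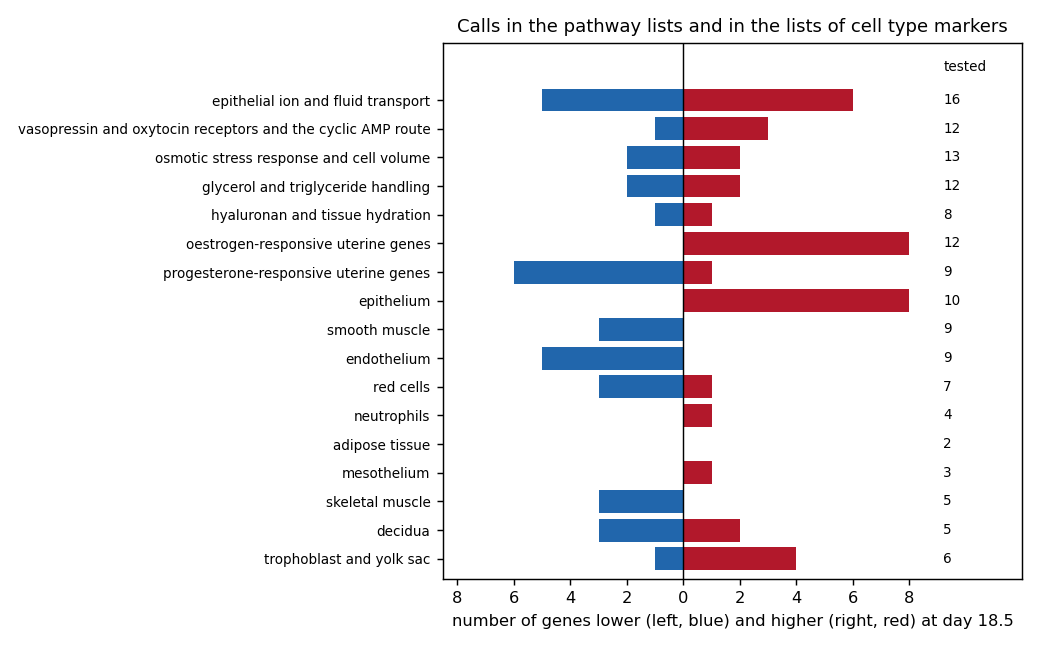
Number of genes called lower (left, blue) and higher (right, red) at day 18.5 in each pathway list and each list of cell type markers, with the number tested at the right. Epithelial ion transport holds 6 higher and 5 lower genes of 16, and the epithelial markers 8 higher and 0 lower of 10.

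The genes whose pattern over the 6 arrays was most like that of Aqp8 were ranked by the Euclidean distance between their deviations from their own means, in log2 units. Nptx1, a secreted pentraxin of neurons, was nearest at 0.61; it was undetected at day 18.5 and at least 11.8-fold lower there (limma, adjusted p = 5.04e-06). Next came Ipas at 1.14, named in the file for an inhibitory PAS domain protein, which fell 10.7-fold (limma, adjusted p = 1.30e-06). Sh2d2a, a T cell adaptor, stood at 1.32; it was detected on only 1 array at day 18.5, so no fold is given, and averaged 5.08 ± 0.37 at day 18.5 and 8.61 ± 0.21 at day 15.5 on the log2 scale (limma, adjusted p = 5.18e-06). Slc17a4, an anion transporter, at 1.34 was undetected at day 18.5 and at least 5.35-fold lower (limma, adjusted p = 1.06e-05). Havcr1, a surface receptor also known as a kidney injury molecule, at 1.35 fell 8.93-fold (limma, adjusted p = 3.54e-06). These genes were picked for their likeness, so their falls are a description.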

How the data were processed

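Uterine RNA of 3 arrays at day 18.5 and 3 at day 15.5 post coitum was analysed, grouped by array title. Per the file headers, the deposited unnormalized table holds, by probe and array, the detection p-value and the mean signal of the beads, an intensity. The authors' normalized intensities are background-corrected and quantile-normalized by their values, on a linear scale; which software did this is not stated. A further table deposited by the authors adds, per the file headers, the count of beads and a ratio of the days; the block of ratios is sorted apart from the probes and was not used beyond checking symbols: 43887 of 43887 ratios matched the symbol on the probe's own line within a relative tolerance of 1e-05.

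Unnormalized intensities went through neqc, which infers the background from detection p-values, adds an offset of 16, applies quantile normalization and takes log2 (limma 3.58.1, R 4.3.3). This shrinks changes of dim probes. Probes detected at p under 0.05 on at least 3 arrays were fitted with lmFit and eBayes, without a block. Genes were counted by their brightest probe. Named from each list were up to 2 genes that rose and 2 that fell, by smallest adjusted p, and the brightest marker; Nfat5 and the list members said to be undetected were named after values were seen. The values of a list gene that the rule picks are not reported here. The members and lists were chosen with earlier results of these data known. Same-numbered arrays of the days did not deviate together (correlations of -0.16, 0.14 and -0.07), so numbers were not taken as pairs. Alternatives changed the background correction, scaling, filter, probe rule, variance model, block and arrays included. Tables and plots used Python 3.11.15, pandas 2.3.3 and matplotlib 3.10.9.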

Additional observations from a re-analysis of the deposited data

How the results depend on the processing

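The falls of Aqp8, Aqp5 and Aqp3 passed the test under each alternative that could give a value: Aqp8 over 17 (log2 change -4.24 to -3.93), Aqp5 over 17 (-3.19 to -2.78) and Aqp3 over 16 (-1.47 to -0.69), the strict detection filter having dropped Aqp3. Aqp1 passed under none of its 17. Among untested members, the Aqp4 probe ILMN_2757232 passed without a detection filter (0.47; limma, adjusted p = 0.0222). Of all 20701 probes, 2401 were higher and 2727 lower, 53.2% of calls being lower. Median scaling gave 1698 higher and 4074 lower, 70.6% being lower, and moved the median change of all probes to -0.11. Leaving out single arrays gave 1742 to 2221 higher and 2027 to 2495 lower. Acta2 turned to -0.40 when a gene's probes were averaged (limma, adjusted p = 0.0228). Of the 578 list counts under alternatives, 519 were within 1.5 times the reported count and 59 were beyond it. Those from other settings than leaving out an array were as follows. The 1 lower gene of the vasopressin list was 3 with no background correction, a normexp offset of 50, median scaling or trended variance, and 0 under the strict filter. The 2 higher osmotic genes were 4 with no background correction, the offset of 50 or trended variance, and the 2 lower ones 1 without a filter. The 1 higher hyaluronan gene was 2 with no background correction, the offset of 50, averaged probes, trended variance or array weights, and 0 without a filter. The 3 lower red cell genes were 5 or 6 with no background correction, the offset of 50, median scaling, trended variance or array weights. The 5 lower endothelial genes were 3 with the authors' values, without a filter or with the block. The 1 higher neutrophil gene was 0 with median scaling, without a filter, under the strict filter or with the block. The 1 higher mesothelial gene was 2 with no background correction, the offset of 50 or the block, and 0 under both other filters. The strict filter, which drops genes undetected at a day, left 3 of 5 lower ion transport genes, 3 of 6 lower and 0 of 1 higher progesterone-responsive genes, 0 of 1 higher red cell genes and 0 of 4 higher trophoblast genes.

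With the replicate number as a block, 2097 probes were higher and 2424 lower, with adjusted p (limma) of 1.22e-05 for Aqp8, 2.16e-05 for Aqp5, 0.00664 for Aqp3 and 0.822 for Aqp1; the block changed no aquaporin call. The arrays share only a number, and not every array correlated best with its own. Signal over background limits Aqp3, Aqp9 and the undetected members, and 3 arrays a day limit the rest.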

Other observations

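Aquaporin genes lie next to each other at 2 places in RefSeq gene order, and their neighbours were read as well. On chromosome 15, Aqp2, Aqp5 and Aqp6 follow each other; Aqp5 fell 7.95-fold while Aqp2 and Aqp6 were undetected, and Faim2, an inhibitor of Fas-mediated cell death on the other side of Aqp2, fell 5.56-fold (5.72 ± 0.46 at day 18.5 and 8.20 ± 0.13 at day 15.5 on the log2 scale; limma, adjusted p = 4.82e-05; detected on 2 of 3 arrays at day 18.5). On chromosome 4, Aqp7 and Aqp3 adjoin; Aqp3 fell 2.24-fold with Aqp7 undetected, and the flanking genes Nol6 and Nfx1 changed by -0.02 (limma, adjusted p = 0.949) and -0.27 (limma, adjusted p = 0.208). Lcmt1, a methyltransferase acting on a protein phosphatase, lies before Aqp8 on chromosome 7 and fell 1.82-fold (11.21 ± 0.05 at day 18.5 and 12.07 ± 0.17 at day 15.5; limma, adjusted p = 0.00113). Of 13 protein-coding neighbours outside the family 7 were tested: 2 were lower, none was higher and 5 did not pass. Over all genes 13.0% were lower and 12.2% higher. Kctd1, before Aqp4 on chromosome 18, changed by 0.51 and did not pass (limma, adjusted p = 0.0744). Over 17 alternatives the lowest limma adjusted p was 0.0192 for Kctd1 and 0.0381 for Nfx1. Whether neighbouring genes moved with the aquaporins for a shared reason was not tested.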
